A study of Homo sapiens with 21 samples.

Results

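The 10 genes described here are transcription factors of the epithelial-mesenchymal transition (EMT): ZEB1, ZEB2, TWIST1, TWIST2, SNAI1, SNAI2, PRRX1 and FOXC2, which are known to drive the mesenchymal state, and GRHL2 and OVOL1, which are known to hold the epithelial one. They were taken from the 42339 genes of a raw count table by their Ensembl identifiers with the version removed, and all 10 were found. The table holds bulk RNA-seq of BT-549, an established human triple-negative breast cancer (TNBC) cell line with wild-type BRCA1, in 21 libraries that form 7 groups of 3. The groups were 2D cells on plastic with serum, 3D cells (mammospheres, spheres grown without attachment) at passage 6, such 3D cells treated with 0.75 μmol/L GO-203, which is an inhibitor of MUC1-C, the transmembrane subunit of mucin 1, and mammospheres of a tet-MUC1shRNA line at passage 6 and of a tet-MYCshRNA line at passage 8, each with 0.1% DMSO (vehicle) or with 500 ng/ml doxycycline (DOX), which switches on the shRNA. Both inducible lines were made by transduction of BT-549 cells, and each carries 1 shRNA sequence. No library of a control shRNA with DOX was analysed here, and DMSO is listed for the vehicle groups only. DOX itself, solvent and silencing therefore cannot be told apart within a line. The methods describe cultures in triplicate, and whether these were set up on separate days is not given in the sources used here, so the p-values measure the spread between these libraries.

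EMT is the programme by which epithelial cells lose their junctions and gain motility. The ZEB and SNAI proteins are zinc finger repressors that bind the E-box letters CAGGTG in the promoters of epithelial genes such as CDH1 (E-cadherin), and the TWIST proteins are basic helix-loop-helix factors. PRRX1 is a homeobox factor of mesenchymal cells and FOXC2 a forkhead factor of mesenchyme and lymphatic vessels. GRHL2 activates epithelial junction genes and, like OVOL1, represses ZEB1.

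Levels are given as CPM (counts relative to library size, scaled with TMM factors over the 21 libraries). Library totals ran from 38026597 to 99751717 counts. A count of 2 was 2.17 to 3.09 times as frequent as a count of 1, and 64.6% to 69.5% of the counts from 1 to 100 were even, so the mates of a read pair appear to have been counted singly and 1 fragment usually gave 2 counts. A gene passed the test at an adjusted p below 0.1 (edgeR's quasi-likelihood test on the counts, Benjamini-Hochberg over all genes tested), and the fold threshold used here was an absolute log2 fold change above 1.5, since the study writes its threshold both as a fold change and as a log2 fold change. The source is labelled as breast epithelium, but the epithelial markers CDH1, EPCAM, KRT8, KRT18 and KRT19 were low. CDH1 had 1.42 CPM in 2D cells and was counted in no 3D library, and the other four had at most 0.506 CPM in these groups, whereas the junction gene OCLN (occludin) had 13.4 and 14.4 CPM and VIM (vimentin, a mesenchymal filament) had 1178 and 1288 CPM there.

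The sequence that ZEB and SNAI proteins are known to bind is shown in the stretches before RefSeq starts of 4 genes, chosen because ZEB1 and some of its known targets changed in these libraries. The letters are from RefSeq (GRCh38.p14), 5′ to 3′ on the gene's strand, and capitals mark CAGGTG read on either strand. Position -1 is the last base before the RefSeq start. The first is the 250 bases before the first of 7 listed starts of ZEB1 (chr10:31318167-31318416, plus strand), with 1 E-box at -57. The second is the stretch from -250 to -4 of PATJ, a polarity gene (chr1:61742230-61742476, plus strand). Sites of 30 bases follow for DSP (desmoplakin, plus strand) at chr6:7541481-7541510 and chr6:7541574-7541603, and for CLDN7 (claudin 7, minus strand) at chr17:7262635-7262664, chr17:7262596-7262625 and chr17:7262479-7262508. The CLDN7 sites precede the second of its 2 listed starts, and the first start has no CAGGTG. All 250 bases before the DSP start and before that CLDN7 start lie in annotated coding or UTR sequence.
ZEB1: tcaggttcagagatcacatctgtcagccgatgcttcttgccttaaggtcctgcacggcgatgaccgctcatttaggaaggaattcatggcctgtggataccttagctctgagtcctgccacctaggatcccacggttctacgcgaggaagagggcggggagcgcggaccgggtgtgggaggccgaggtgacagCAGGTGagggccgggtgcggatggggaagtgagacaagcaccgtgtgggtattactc
PATJ: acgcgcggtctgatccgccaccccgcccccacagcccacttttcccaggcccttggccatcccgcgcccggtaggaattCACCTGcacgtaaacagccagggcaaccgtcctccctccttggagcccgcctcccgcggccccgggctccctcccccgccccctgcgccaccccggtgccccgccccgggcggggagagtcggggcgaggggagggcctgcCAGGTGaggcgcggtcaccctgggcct
DSP, site 1: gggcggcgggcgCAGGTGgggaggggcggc
DSP, site 2: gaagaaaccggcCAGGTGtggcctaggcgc
CLDN7, site 1: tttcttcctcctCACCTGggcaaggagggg
CLDN7, site 2: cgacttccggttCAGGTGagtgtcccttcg
CLDN7, site 3: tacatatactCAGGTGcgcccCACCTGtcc

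Over all 35116 promoters of that table, 17.5% hold CAGGTG on either strand in the 250 bases before the start and 6.34% hold CACGTG, the E-box of MYC, and no run of 6 letters is both. ZEB1, ZEB2, TWIST2 and PRRX1 have promoters there. Of these members 1, ZEB1, holds CAGGTG, at 2 of its 7 starts, and none holds CACGTG. Of 20 known epithelial targets of the EMT factors 12 have promoters there, and CDH1 is not among them. Of the 16 starts of these targets 9 hold CAGGTG (8 of 12 genes), but many of these genes are known as targets through that motif. No binding was measured, so these matches describe letters only.

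The genes lie on 8 chromosomes. Identifiers are those of the count table, and positions are from GENCODE release 44 (GRCh38), where ZEB2 and TWIST2 carry a later version of their identifier. ZEB1 (ENSG00000148516.23) is at chr10:31318495-31529814 and ZEB2 (ENSG00000169554.22) at chr2:144364364-144521057. TWIST1 (ENSG00000122691.13) is at chr7:19020991-19117636 and TWIST2 (ENSG00000233608.4) at chr2:238848032-238910534. SNAI1 (ENSG00000124216.4) is at chr20:49982980-49988886 and SNAI2 (ENSG00000019549.13) at chr8:48917598-48921740. PRRX1 (ENSG00000116132.12) is at chr1:170662728-170739421, FOXC2 (ENSG00000176692.8) at chr16:86566829-86569728, GRHL2 (ENSG00000083307.12) at chr8:101492439-101669726 and OVOL1 (ENSG00000172818.10) at chr11:65787063-65797214. None shares exon bases with another gene on its own strand. A gene on the opposite strand covers 4.58% of the exon bases of ZEB1 (ZEB1-AS1), 4.97% of ZEB2, 7.06% of TWIST1, 3.69% of SNAI2, 7.97% of FOXC2 (FOXC2-AS1), 0.826% of GRHL2 and 27.3% of OVOL1. The strand setting of the counting is not given in the sources used here, so reads over these bases could be assigned to either gene. ZEB2 and SNAI1 each have 1 annotated pseudogene named after them.

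Each factor had its own order of levels over the 7 groups. TWIST1, ZEB1, PRRX1 and FOXC2 were lowest in 2D cells, whereas ZEB2, SNAI1 and GRHL2 were highest there. SNAI2 was lowest in 3D cells, and TWIST2 varied least. OVOL1 was counted in 3 of 21 libraries, with 2, 4 and 3 counts, and was tested in no comparison.

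**Figure D1:**
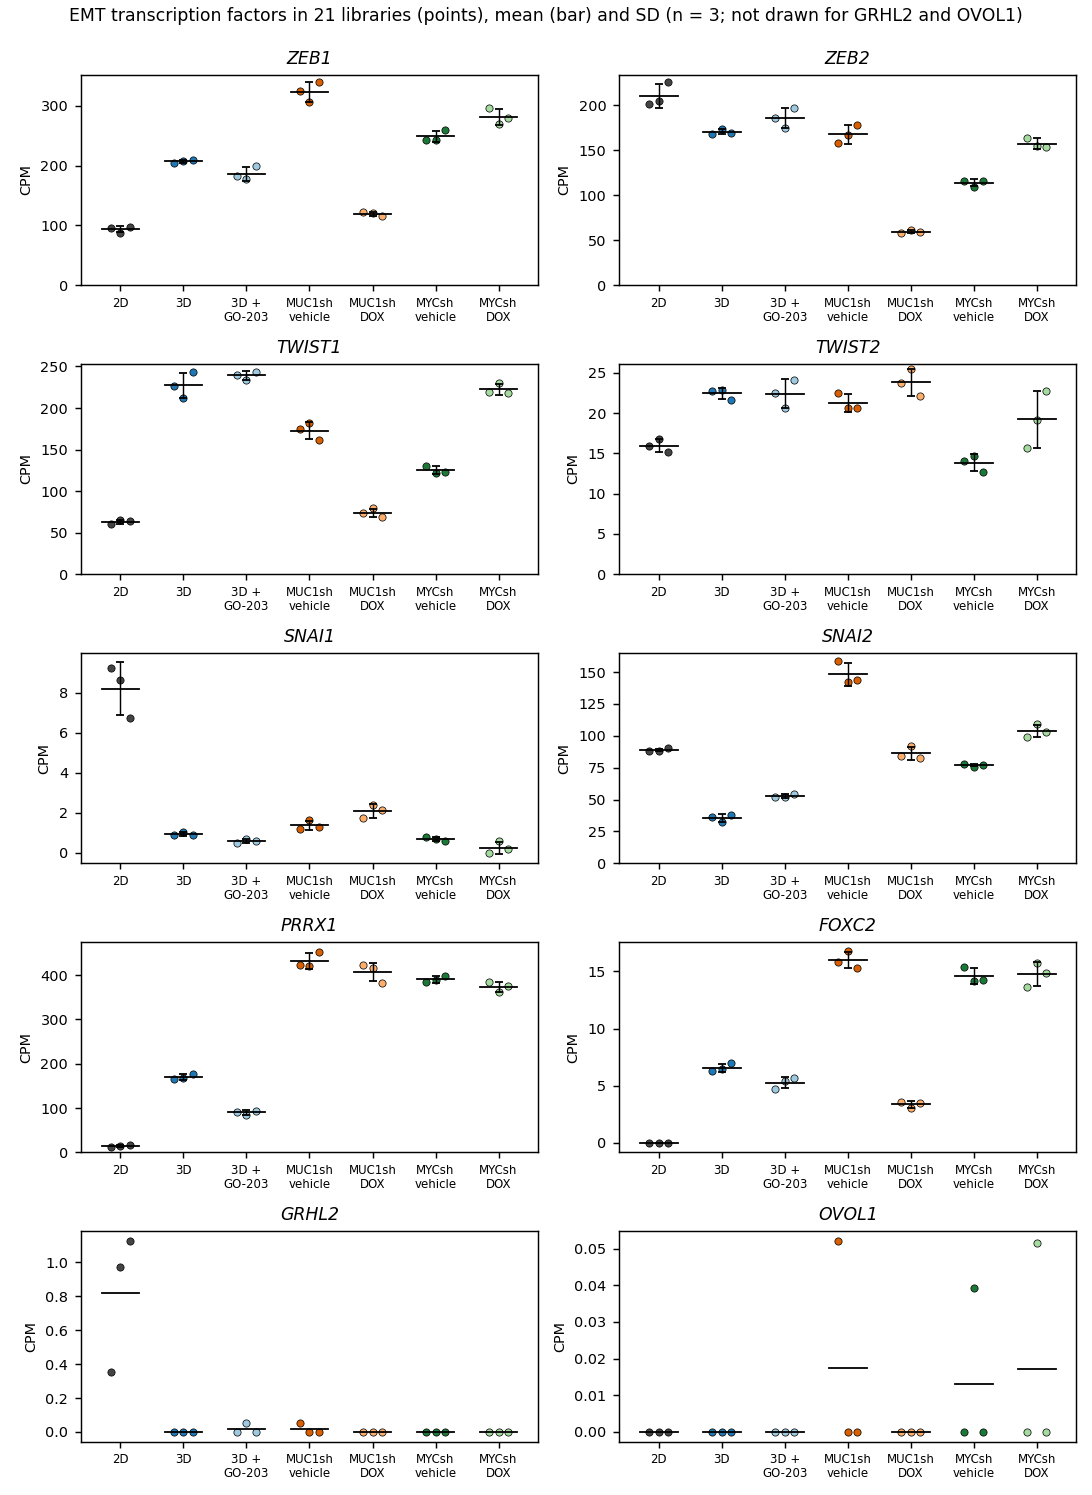
CPM of the 10 EMT transcription factors (linear axes, 1 panel a gene) in the 7 groups: 2D, 3D, 3D with GO-203, and vehicle- or DOX-treated tet-MUC1shRNA (MUC1sh) and tet-MYCshRNA (MYCsh) mammospheres. Points are libraries, horizontal bars the means of 3 and error bars the SD, which is left out for GRHL2 and OVOL1. PRRX1 runs from 12.9 CPM in a 2D library to 453 in a vehicle-treated tet-MUC1shRNA library, and ZEB2 has its lowest points, 57.5 to 60.9 CPM, in DOX-treated tet-MUC1shRNA cells.

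The 3D cells were first compared with 2D cells, which asks what the mammosphere culture does. MUC1 and MYC, the genes silenced later, were 1.93 and 2.76 higher on the log2 scale in 3D cells. PRRX1 rose most of the members counted in both groups, from 15.1 ± 2.10 to 170 ± 6.48 CPM (SD, n = 3), and TWIST1 and ZEB1 rose less. SNAI1 and SNAI2 fell, and ZEB2 fell slightly. All 9 members tested passed, against a background of 63.7% of the 19190 genes tested, with 5 higher (background 32.0%) and 4 lower (31.7%), and 5 of the 9 also passed the fold threshold (background 16.2%). FOXC2 and GRHL2 were counted in 1 of the groups only, so they entered the test through the group where they are high and had to differ.

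PRRX1 had 12.9, 15.2 and 17.1 CPM in the 2D libraries and 165, 168 and 177 in the 3D libraries. The groups lie far apart, with a log2 fold change of 3.49 (SE 0.087, adjusted p = 5.4e-15, edgeR). FOXC2 had no count in any 2D library and 6.27, 6.42 and 6.97 CPM in the 3D libraries. Taken against the CPM that 6 counts per library (3 fragments of 2 counts) would give, it was at least 57.8-fold higher in 3D cells (this floor covers counting error only). TWIST1 had 60.6, 64.8 and 63.7 CPM in 2D and 226, 213 and 243 in 3D libraries, a log2 fold change of 1.85 (SE 0.062, adjusted p = 2.3e-13, edgeR). ZEB1 had 95.9, 87.9 and 97.4 CPM in 2D and 205, 208 and 209 in 3D libraries, or 2.21-fold more, which stays under the fold threshold at 1.14 on the log2 scale (adjusted p = 6.0e-11, edgeR). The paralog of TWIST1, TWIST2, differed less. It had 15.9, 16.7 and 15.1 CPM in 2D and 22.8, 22.9 and 21.7 in 3D libraries (log2 fold change 0.49, adjusted p = 5.1e-05, edgeR).

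The SNAI factors went the other way. SNAI1 had 9.25, 8.62 and 6.72 CPM in 2D libraries and 0.893, 1.05 and 0.899 in 3D libraries, a log2 fold change of -3.11 (SE 0.18, adjusted p = 2.6e-10, edgeR). SNAI2 had 88.2, 88.3 and 90.1 CPM in 2D and 36.1, 32.3 and 37.9 in 3D libraries (log2 fold change -1.33, adjusted p = 3.3e-11, edgeR). The direction for SNAI2 depended on which mammospheres were compared. With the vehicle-treated tet-MUC1shRNA mammospheres set against 2D cells in their place, SNAI2 was higher in the spheres, by 0.73 on the log2 scale (adjusted p = 7.2e-09, edgeR). ZEB2 had 201, 205 and 226 CPM in 2D and 168, 174 and 170 in 3D libraries, without overlap but with a log2 fold change of only -0.31 (adjusted p = 2.7e-04, edgeR). GRHL2, the keeper of the epithelial state, had 16, 56 and 66 counts in the 2D libraries (0.355, 0.973 and 1.13 CPM) and none in the 3D libraries, at least 7.34-fold less by the same floor.

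**Figure D2:**
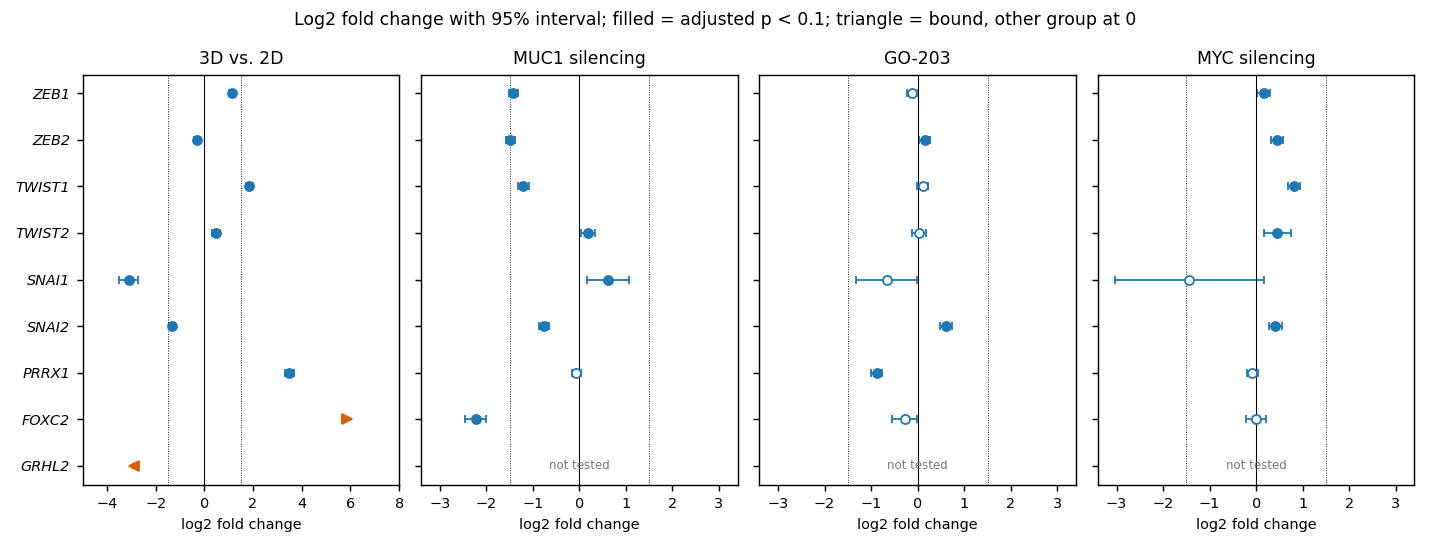
Log2 fold change (horizontal axis, which is wider for 3D vs. 2D) of 9 members in 4 comparisons, with 95% intervals; filled points passed an adjusted p of 0.1, dotted lines mark the fold threshold of 1.5 and triangles are bounds for FOXC2 and GRHL2, whose other group had no counts. ZEB1, ZEB2, TWIST1, SNAI2 and FOXC2 lie left of 0 under MUC1 silencing, and the 5 members that passed under MYC silencing lie right of 0.

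MUC1 silencing was examined as DOX- against vehicle-treated tet-MUC1shRNA mammospheres, which asks which factors depend on MUC1. MUC1 itself fell by 2.06 on the log2 scale, from 90.3 to 21.4 CPM, and MYC was 0.25 higher (adjusted p = 5.0e-05, edgeR). ZEB1, ZEB2 and TWIST1 all dropped to between 0.353 and 0.428 of their vehicle level and FOXC2 to 0.211, while PRRX1 did not pass. Of 8 members tested, 7 passed, against 62.2% of the 19220 genes tested, with 5 lower (background 31.6%) and 2 higher (30.7%). FOXC2 alone passed the fold threshold (background 8.82%), and ZEB2, at -1.48, lay just short of it. The median of the 8 was -0.98 and that of all genes 0.02.

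ZEB1 had 324, 306 and 339 CPM with vehicle and 122, 121 and 115 with DOX. Every DOX library lay below every vehicle library, and the log2 fold change was -1.41 (SE 0.045, adjusted p = 3.9e-16, edgeR). ZEB2 had 158, 167 and 178 CPM with vehicle and 57.5, 60.9 and 59.1 with DOX (log2 fold change -1.48, adjusted p = 1.2e-15, edgeR). These are the lowest ZEB2 levels of all 7 groups, and 2D cells had the highest. TWIST1 had 175, 182 and 161 CPM with vehicle and 73.3, 79.3 and 69.2 with DOX (log2 fold change -1.20, adjusted p = 1.0e-13, edgeR). FOXC2 had 15.8, 16.7 and 15.3 CPM with vehicle and 3.61, 3.01 and 3.49 with DOX, a log2 fold change of -2.23 (SE 0.105, adjusted p = 2.0e-13, edgeR). SNAI2 had 159, 142 and 144 CPM with vehicle and 84.1, 91.7 and 82.6 with DOX, again without overlap (log2 fold change -0.76, adjusted p = 7.2e-11, edgeR).

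The remaining members moved little or upward. PRRX1 had 422, 421 and 453 CPM with vehicle and 422, 416 and 383 with DOX. Its groups overlap, and the 95% interval of the log2 fold change, -0.15 to 0.03, includes 0 (adjusted p = 0.23, edgeR). Its sign and call depend on the scaling, since library size alone gave 0.10 (adjusted p = 0.041), and without the first vehicle library it passed at -0.09 (adjusted p = 0.098). SNAI1 had 1.20, 1.65 and 1.30 CPM with vehicle and 1.73, 2.40 and 2.13 with DOX (log2 fold change 0.62, adjusted p = 0.018, edgeR), from 46 to 172 counts a library, and did not pass when all 21 libraries shared 1 fit (adjusted p = 0.16). TWIST2 had 22.5, 20.7 and 20.6 CPM with vehicle and 23.8, 25.5 and 22.1 with DOX. Its groups overlap, and its log2 fold change of 0.19 (adjusted p = 0.026, edgeR) no longer passed without the second DOX library (0.15, adjusted p = 0.14) or in that fit (adjusted p = 0.19). GRHL2 and OVOL1 had at most 2 counts in any of these libraries.

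GO-203 was examined as GO-203-treated against untreated 3D cells, which asks whether inhibiting MUC1-C acts as silencing does. The untreated 3D libraries are the same ones that were compared with 2D cells. MUC1 was 0.33 higher on the log2 scale with GO-203, and MYC had a value of -0.01 (adjusted p = 0.91, edgeR). PRRX1 fell to 0.531 of its level, SNAI2 rose 1.49-fold, and ZEB1 and TWIST1 did not pass. Of 8 members tested, 3 passed, against 24.1% of the 18488 genes tested, with 2 higher (background 11.1%) and 1 lower (12.9%), and none passed the fold threshold by edgeR, by DESeq2 or at an unadjusted p below 0.05 (background 0.757%).

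PRRX1 had 165, 168 and 177 CPM without and 92.0, 84.5 and 94.0 with GO-203, a log2 fold change of -0.88 (SE 0.058, adjusted p = 3.0e-10, edgeR). SNAI2 had 36.1, 32.3 and 37.9 CPM without and 51.7, 52.1 and 54.2 with GO-203 (log2 fold change 0.60, adjusted p = 1.8e-07, edgeR). Both pairs of groups lie apart. ZEB2 had 168, 174 and 170 CPM without and 186, 175 and 197 with GO-203, or 0.15 higher on the log2 scale (adjusted p = 0.065, edgeR), which failed the threshold when 4 of the 6 libraries were left out in turn (the first or the third 3D library, the first or the third GO-203 library, adjusted p from 0.16 to 0.24).

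ZEB1 had 205, 208 and 209 CPM without and 183, 177 and 200 with GO-203, with a 95% interval of the log2 fold change from -0.24 to -0.0046 (adjusted p = 0.15, edgeR). DESeq2 gave it an adjusted p of 0.053, so that it passed there, and it also passed without the third GO-203 library (adjusted p = 0.082, edgeR). TWIST1 had 226, 213 and 243 CPM without and 240, 234 and 244 with GO-203 (interval -0.01 to 0.22). FOXC2 had 6.27, 6.42 and 6.97 CPM without and 4.75, 5.38 and 5.71 with GO-203 (log2 fold change -0.28, adjusted p = 0.14, edgeR). The FOXC2 groups lie apart, and with all 21 libraries in 1 fit FOXC2 passed, as did ZEB1. For ZEB1, TWIST1 and FOXC2 the intervals leave out changes of the size seen with DOX in tet-MUC1shRNA cells, but vector, agent and untreated level differ between the experiments and the difference was not tested. SNAI1 had 0.893, 1.05 and 0.899 CPM without and 0.475, 0.685 and 0.594 with GO-203, from 21 to 58 counts a library. Its groups lie apart, but its log2 fold change of -0.67 (interval -1.32 to -0.01, adjusted p = 0.16, edgeR) did not pass.

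MYC silencing was examined as DOX- against vehicle-treated tet-MYCshRNA mammospheres, which asks the same of MYC. MYC fell by 0.62 on the log2 scale, from 414 to 273 CPM, and MUC1 was 1.25 higher. TWIST1 rose 1.78-fold, ZEB2, TWIST2 and SNAI2 rose by between 0.41 and 0.45 on the log2 scale, and ZEB1 by 0.16. Of 8 members tested 5 passed, against 58.5% of the 19951 genes tested, all 5 of them higher (background 30.3%, and 28.1% for lower), and none passed the fold threshold by edgeR, by DESeq2 or at an unadjusted p below 0.05 (background 10.5%). The median of the 8 was 0.28, and that of all genes 0.01. The first DOX library of this line stood further from its replicates than any library of the other groups, since the chi-square over genes, divided by its degrees of freedom, was 52.8 and 36.3 between the first and the others and 19.55 between the others, against 4.37 to 21.04 for pairs within the other groups. Without the first DOX library 6 members passed, the same 5 and PRRX1.

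TWIST1 had 131, 122 and 123 CPM with vehicle and 220, 231 and 218 with DOX (log2 fold change 0.81, SE 0.060, adjusted p = 1.7e-06, edgeR). ZEB2 had 116, 109 and 116 CPM with vehicle and 164, 154 and 154 with DOX (log2 fold change 0.45, adjusted p = 1.4e-04, edgeR). SNAI2 had 77.8, 75.9 and 77.4 CPM with vehicle and 99.4, 109 and 103 with DOX (log2 fold change 0.41, adjusted p = 3.0e-04, edgeR). In each of these genes every DOX library lay above every vehicle library. TWIST2 had 14.1, 14.7 and 12.7 CPM with vehicle and 15.7, 19.2 and 22.8 with DOX (log2 fold change 0.45, adjusted p = 0.015, edgeR), and its DOX libraries were the most spread of any of its groups. ZEB1 had 243, 244 and 260 CPM with vehicle and 297, 270 and 279 with DOX. Its adjusted p of 0.056 (edgeR) rose to 0.16 with DESeq2, to 0.12 with library size alone, and to 0.21 and 0.25 without the first and without the second vehicle library.

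PRRX1 had 384, 388 and 398 CPM with vehicle and 383, 362 and 376 with DOX (interval -0.21 to 0.04), and among the alternatives tried it passed only without the first DOX library (log2 fold change -0.11, adjusted p = 0.086, edgeR). FOXC2 had 15.4, 14.2 and 14.3 CPM with vehicle and 13.7, 15.7 and 14.9 with DOX, so its groups overlap, and the interval of the log2 fold change runs from -0.22 to 0.22. SNAI1 was the rarest member tested here, with 61, 72 and 36 counts with vehicle and 0, 34 and 12 with DOX. Its log2 fold change of -1.43 had an SE of 0.72 and an adjusted p of 0.12 (edgeR). Without the second DOX library it passed at -2.78 (adjusted p = 0.011). It also passed with no filter, with all 21 libraries in 1 fit, with a replicate block and with halved counts. The call thus depends on single libraries and on the processing.

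The effects of DOX in the lines were then set against each other, as DOX against vehicle in tet-MUC1shRNA minus the same in tet-MYCshRNA mammospheres, in 1 fit of the 12 libraries. This asks whether MUC1 and MYC silencing differ, and since both lines received the same DOX dose, an equal effect of DOX cancels. Of 8 members 6 passed, against 52.9% of the 21585 genes tested, with 5 lower (background 26.9%) and 1 higher (26.0%). The difference was -2.24 for FOXC2 (SE 0.14, adjusted p = 4.4e-10, edgeR), -2.03 for TWIST1 (adjusted p = 4.5e-12), -1.94 for ZEB2 (adjusted p = 2.1e-12), -1.59 for ZEB1 (adjusted p = 1.6e-11) and -1.18 for SNAI2 (adjusted p = 3.5e-09). ZEB2, TWIST1 and SNAI2 fell in one line and rose in the other, whereas FOXC2 fell in one and had a value of -0.00 in the other. ZEB1 fell in one and was 0.16 higher in the other, where its call was lost with DESeq2 and other alternatives. SNAI1 had a difference of 2.03 (SE 0.68, adjusted p = 0.021, edgeR), which DESeq2 did not call (adjusted p = 0.11). For PRRX1 the difference was 0.01 with an interval from -0.15 to 0.16, and library size alone moved it to 0.21 (adjusted p = 0.024). TWIST2 differed by -0.28 (interval -0.61 to 0.05, adjusted p = 0.16, edgeR), and it passed without the first tet-MYCshRNA DOX library (-0.41, adjusted p = 0.011). MYC was silenced less deeply than MUC1, by 0.62 against 2.06 on the log2 scale, and the lines differed in passage.

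The untreated states of the mammospheres differed as well. In vehicle-treated tet-MUC1shRNA cells against parental 3D cells at the same passage, 6 of 8 members passed (background 62.6%), with 5 higher (31.8%) and 1 lower (30.7%). SNAI2 had 36.1, 32.3 and 37.9 CPM in 3D cells and 159, 142 and 144 in vehicle-treated tet-MUC1shRNA cells, a log2 fold change of 2.06 (SE 0.066, adjusted p = 3.7e-13, edgeR). PRRX1 was 1.34, FOXC2 1.28 and ZEB1 0.63 higher on the log2 scale, and TWIST1 was 0.40 lower. MUC1 was 1.20 and MYC 1.25 lower there, without DOX. SNAI1 passed at an adjusted p of 0.083 (log2 fold change 0.54, edgeR) and failed with DESeq2 (adjusted p = 0.20) and without any of 4 libraries (the first or the third 3D library, the second or the third vehicle library, adjusted p from 0.11 to 0.28). Vehicle-treated tet-MYCshRNA cells were lower than vehicle-treated tet-MUC1shRNA cells in all 8 members tested, of which 7 passed (background 66.8%, with 33.3% lower and 33.5% higher). MYC was 0.78 higher there and MUC1 0.37 lower. FOXC2 did not pass, at -0.11 (adjusted p = 0.22, edgeR), and PRRX1 did not pass without the second tet-MYCshRNA vehicle library (-0.11, adjusted p = 0.11). Vector and solvent cannot be told apart in the comparison with parental 3D cells, nor shRNA line and passage in that between the lines.

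Taken in order of level, the 7 groups of ZEB1 did not overlap: vehicle-treated tet-MUC1shRNA cells came first (323 CPM), then DOX- and vehicle-treated tet-MYCshRNA cells (282 and 249), 3D cells (207), GO-203-treated cells (186), DOX-treated tet-MUC1shRNA cells (119) and 2D cells (93.8). ZEB2 ran from 211 CPM in 2D cells through 186 with GO-203 and 171 in 3D cells to 59.2 in DOX-treated tet-MUC1shRNA cells, and 3D cells overlapped with vehicle-treated tet-MUC1shRNA cells. TWIST1 was highest in GO-203-treated, 3D and DOX-treated tet-MYCshRNA cells (239, 227 and 223 CPM), each of which overlapped with the next. SNAI2 in DOX-treated tet-MUC1shRNA cells (86.2 CPM) overlapped with 2D cells (88.9). PRRX1 was between 373 and 432 CPM in the 4 groups of transduced cells, above every other group. For TWIST2, 5 of the 6 pairs of neighbours overlapped, over group means from 13.8 to 23.8 CPM.

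Per length (CPM per kilobase of the canonical transcript), the most abundant member was SNAI2 in 2D cells (40.8), TWIST1 in 3D cells (139), in GO-203-treated cells (147) and in DOX-treated tet-MYCshRNA cells (137), and PRRX1 in DOX-treated tet-MUC1shRNA cells (100.2) and in vehicle-treated tet-MYCshRNA cells (96.0). In vehicle-treated tet-MUC1shRNA cells PRRX1 (106.4) and TWIST1 (106.0) were level. With the length of all annotated exons in place of the canonical transcript, TWIST1 came first in 2D cells (31.6 against 27.1 for SNAI2) and in vehicle-treated tet-MUC1shRNA (86.5 against 52.4 for PRRX1) and tet-MYCshRNA cells (62.7 against 47.3).

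Within the paralog pairs the balance shifted with the culture. On the same scale per length, ZEB1 made up 41.0 ± 1.44% of the ZEB1 and ZEB2 level in 2D and 65.4 ± 0.341% in 3D libraries (SD, n = 3). With all annotated exons as the length these shares were 57.4% and 78.6%, so which of the 2 is higher in 2D cells depends on the length used, but the shift toward ZEB1 does not. MUC1 silencing left the share at 75.0 ± 1.10% with vehicle and 75.9 ± 0.792% with DOX, while both genes fell. TWIST1 made up 87.0 ± 0.798% of its pair with vehicle and 71.9 ± 0.155% with DOX in tet-MUC1shRNA cells, below its 76.5 ± 0.982% in 2D cells. SNAI1 was the minor member of its pair everywhere, with 10.5 ± 1.63% in 2D cells and at most 3.34% in any mammosphere group.

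**Figure D3:**
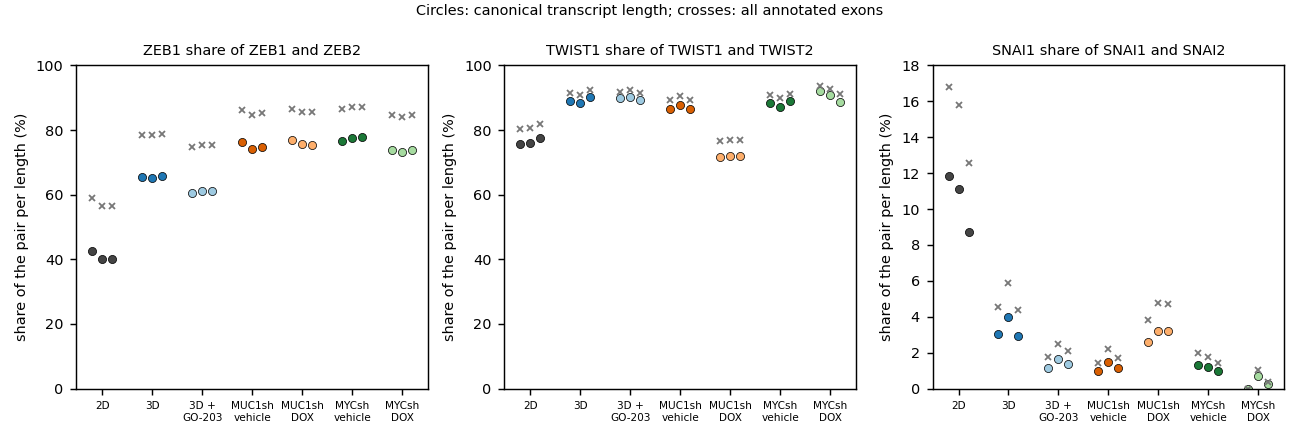
Share (%) of the first gene in the summed level per length of each paralog pair in the 7 groups, 1 circle a library with the canonical transcript length and 1 cross with all annotated exons; the right panel has its own axis. The ZEB1 share rises from 41.0% in 2D to 65.4% in 3D cells, and the TWIST1 share drops from 87.0% to 71.9% with DOX in tet-MUC1shRNA cells.

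Genes around the members were read from lists of known targets, partners and other inducers. Beside their counts stand the shares of all genes tested, of which 30.7% rose and 31.6% fell on MUC1 silencing, 30.3% and 28.1% on MYC silencing, 11.1% and 12.9% with GO-203 and 32.0% and 31.7% in 3D against 2D cells. Among known epithelial targets of the repressors, such as junction and keratin genes, 12 of 20 could be tested on MUC1 silencing and 10 rose, 1 fell and 1 did not pass. KRT8 (keratin 8) had 0.0419 CPM with vehicle, under the level of 6 counts a library, and 1.34 CPM with DOX. DSP rose from 0.192 to 1.66 CPM (log2 fold change 3.17) and PATJ from 0.544 to 3.83 (2.83), while CLDN7 fell from 4.51 to 0.463 (-3.22). Of the 10 that rose, 5 (CDH1, KRT8, KRT18, LLGL2 and DSP) reached the minimum of the filter on low counts in all DOX libraries but not in all vehicle libraries, so they entered the test through the group where they are high. The other 5, OCLN, PATJ, JUP, MARVELD2 and PKP3, reached it in every library. The levels were low, and the summed level of the 20 genes was 18.1 to 20.1 CPM with vehicle and 32.8 to 34.3 with DOX. DSP, PATJ and CLDN7, which moved in opposite directions, all hold CAGGTG in the stretches printed above (CLDN7 at 1 of its 2 starts). KRT8 and MARVELD2, which rose as well, hold none before their 1 listed start. On MYC silencing 9 targets were tested, of which 4 rose, led by JUP (plakoglobin, from 1.21 to 8.51 CPM, log2 fold change 2.79), and 2 fell, CLDN7 (-2.00) and OCLN (-0.97). With GO-203, 1 of 11 passed, JUP, which fell by 0.96. In 3D against 2D cells 3 of 11 rose, led by PKP3 (plakophilin 3, 1.84), and 3 fell: CDH1, at least 12.7-fold lower in 3D cells, JUP (-2.67) and MARVELD2 (tricellulin, -1.46). Of these calls CDH1 lower and KRT8 and CLDN7 higher in 3D cells, and LLGL2 higher on MYC silencing, also came through the higher group.

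Among 16 mesenchymal genes, all testable, 8 rose and 8 fell on MUC1 silencing. CDH2 (N-cadherin) rose from 11.9 to 74.1 CPM (log2 fold change 2.67) and CDH11 (cadherin 11) by 1.51, whereas LOX (lysyl oxidase, -1.79) and TNC (tenascin C, -1.55) fell. On MYC silencing 12 of the 16 rose and 3 fell, with CDH11 going from 3.11 to 68.8 CPM (4.45), COL3A1 (a fibrillar collagen) from 10.8 to 216 (4.30) and S100A4 by 2.22. In 3D against 2D cells 7 rose and 9 fell, with FN1 (fibronectin) 3.89 higher and CDH11 (-6.47), COL1A1 (-4.18) and SPARC (-3.97) lower. With GO-203, 7 rose and 2 fell, among them CDH11 (1.41), COL3A1 (1.07) and ITGA5 (integrin α5, -0.84). Of the 16, 16 passed on MUC1 silencing and in 3D against 2D cells (background 62.2% and 63.7%), 15 on MYC silencing (58.5%) and 9 with GO-203 (24.1%). The median of the 16 was 0.86 on MYC silencing and between -0.42 and 0.12 in the other 3 comparisons, and the median of all genes was between -0.01 and 0.02.

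Of 13 epithelial-state regulators, the genes that act with GRHL2 and OVOL1, 10 were tested on MUC1 silencing and 5 rose, among them GRHL3 from 0.336 to 1.05 CPM (log2 fold change 1.68) and EHF from 2.19 to 4.19 (0.96). The 5 include GATA3 and TP63, with 8 and 10 counts summed over the vehicle libraries, which entered the test through the DOX group, and the other 5 tested did not pass (background 62.2% passing). GRHL2 itself was not counted with DOX. EHF also rose with GO-203 (1.17), 1 of 2 regulators of 8 tested that did. On MYC silencing 3 of 8 rose. In 3D against 2D cells 2 of 8 rose and 2 fell, TP63 (-4.02) and FOXA1 (-3.74), both of which like GRHL2 had their higher level in 2D cells. Here TP63 was tested through the 2D group and the genes that rose, GRHL3 and GATA3, through the 3D group, as was ESRP1 through the DOX group on MYC silencing. The share of all genes that passed was 63.7% in 3D against 2D cells, 58.5% on MYC silencing and 24.1% with GO-203.

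Of 12 other EMT inducers, 8 were tested in each comparison. In 3D against 2D cells 3 rose, with HMGA2 (a chromatin protein) 2.27 higher and SNAI3 tested through the 3D group only, and 5 fell, with TCF4 (-1.95), SOX4 (-1.54) and PRRX2 (-1.13), the paralog of PRRX1, lower. On MUC1 silencing 4 rose, TCF4 by 0.48 and ZNF281 by 0.29 among them, and 2 fell, PRRX2 (-0.79) and TCF3 (-0.54). With GO-203, 1 rose, FOXC1 by 0.21, and 3 fell, PRRX2 (-0.53), HMGA2 (-0.35) and TCF3 (-0.27). On MYC silencing 2 rose, SOX4 by 1.89 and FOXC1, the paralog of FOXC2, by 0.76, and 2 fell, TCF3 (-0.92) and ZNF281 (-0.42). All 8 passed in 3D against 2D cells, SNAI3 among them (background 63.7%), 6 on MUC1 silencing (62.2%), 4 with GO-203 (24.1%) and 4 on MYC silencing (58.5%).

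All 15 corepressors and turnover factors of the ZEB and SNAI proteins were testable. On MUC1 silencing 4 rose and 8 fell, with CTBP1, a corepressor of ZEB1, going from 56.5 to 25.7 CPM (log2 fold change -1.11). On MYC silencing 3 rose and 7 fell, with AJUBA, a SNAI partner, 2.40 lower and KDM1A (the demethylase LSD1) 0.94 lower. In 3D against 2D cells 5 rose and 3 fell, with AJUBA (-2.21) lower and RCOR1 (0.63) higher. With GO-203, 1 rose and 7 fell, HDAC1 (-0.42) among them. Of the 15, 12 passed on MUC1 silencing (background 62.2%), 10 on MYC silencing (58.5%), 8 in 3D against 2D cells (63.7%) and 8 with GO-203 (24.1%). Of 8 antisense or divergent neighbours of the members 4 are in the table and 2 were tested. ZEB1-AS1, which overlaps ZEB1, had 10.9 CPM with vehicle and 7.71 with DOX on MUC1 silencing (log2 fold change -0.48, adjusted p = 1.6e-04, edgeR), and ZEB2-AS1 rose from 0.601 to 1.57 CPM (1.39), while ZEB2 fell. On MYC silencing ZEB2-AS1 rose from 0.283 to 0.637 CPM (log2 fold change 1.15, adjusted p = 0.020, edgeR), as ZEB2 did. With the strand setting not known, part of these reads may belong to the sense genes.

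**Figure D4:**
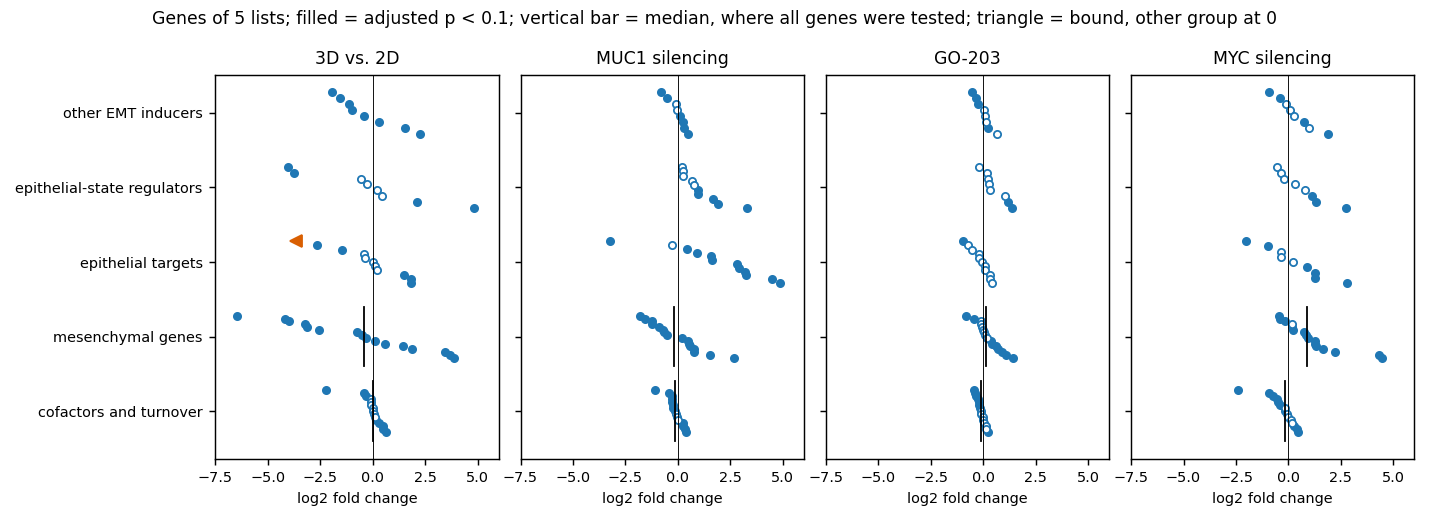
Log2 fold change (horizontal axis) of the genes tested in 5 lists around the EMT factors, in 4 comparisons; filled points passed an adjusted p of 0.1, open points did not, vertical bars are the medians of the 2 lists whose genes were all tested, and the triangle is the bound for CDH1. The 10 epithelial targets that rose on MUC1 silencing lie right of 0 with CLDN7 alone far left, and 12 of 16 mesenchymal genes rose on MYC silencing.

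Markers of other cell types were low. The 5 markers of blood, endothelial and liver cells summed to 1.41 to 1.69 CPM in 2D cells, 6.07 to 7.31 in 3D cells, 6.55 to 7.08 with GO-203, 4.09 to 4.33 and 2.81 to 3.49 in tet-MUC1shRNA cells with vehicle and DOX, and 6.55 to 7.19 and 8.86 to 10.4 in tet-MYCshRNA cells. PECAM1 made up most of it outside 2D cells, and CD3E, VWF and ALB were too low to test. In 3D against 2D cells PECAM1 went from 0.0114 to 6.76 CPM (log2 fold change 8.84, adjusted p = 6.9e-12, edgeR). PTPRC went from 1.25 to 0.0632 CPM (-4.30, adjusted p = 6.5e-07, edgeR). Each entered that test through the group where it is high. VIM differed by 0.12 in 3D against 2D cells, 0.18 on MUC1 silencing and -0.18 on MYC silencing (log2). The part of these markers in the results was not tested. In bulk RNA, fewer cells with a gene and less RNA of it per cell cannot be told apart.

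The members with the widest range of levels were compared with 15315 genes over the 21 libraries, as a description only, since libraries of 1 group share their treatment. The closest to PRRX1 were SLC9A7 (Pearson's r of log2 CPM 0.992) and TMCC3 (0.985), to FOXC2 RARB (0.979) and THEMIS2 (0.973), to SNAI1 BTBD3 (0.965) and RIN3 (0.949), and to SNAI2 SCOC (0.911) and SERPINB1 (0.910).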

How the data were processed

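The authors deposited 1 table of raw counts per gene for 21 libraries (TruSeq stranded mRNA, paired-end, GRCh38, STAR and featureCounts). The STAR version is given as 2.7.3a in the submitters' processing notes and differently in the methods, and which annotation release, strand setting and rule for multi-mapping reads were used is not given in the sources used here. Missing cells, which come in blocks of libraries, were read as 0. The 2D and 3D libraries share a block, and the GO-203 libraries form another that lists different genes. Each comparison was fitted to its own 6 libraries with edgeR 4.0.16 (R 4.3.3): filterByExpr, TMM factors, quasi-likelihood test, Benjamini-Hochberg over all genes tested. The difference between the lines was an interaction over 12 libraries. CPM were scaled with TMM over all libraries. Promoters were searched in the 250 bases before RefSeq starts. The fits were tested on simulated data. DESeq2 1.42.0, RLE factors, library size alone, other filters and thresholds, 1 fit of all libraries, a replicate block and each library left out were alternatives. Halved counts, exon-union lengths and the floor of 6 counts were added after the data were seen. All 10 members are named, and of each list up to 4 genes per comparison with the largest absolute log2 fold change among those that passed with a mean of at least 1 CPM in either group. Genes named for how they entered the test were chosen after their values were seen. Some genes of the lists are not reported here. The members and lists were chosen with earlier results of these data known. Totals between 38026597 and 99751717 counts make counting error small for the members except SNAI1, GRHL2 and OVOL1. It is not small for genes of the lists near the floor, such as CDH1, GATA3 and TP63 in tet-MUC1shRNA cells.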

Additional observations from a re-analysis of the deposited data

Results flagged for a closer look

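For 6 members the effect of DOX differed between the tet-MUC1shRNA and the tet-MYCshRNA lines by the interaction test (edgeR, adjusted p from 2.1e-12 to 0.021). On the log2 scale, the tet-MUC1shRNA effect minus the tet-MYCshRNA effect was -2.24 for FOXC2, -2.03 for TWIST1, -1.94 for ZEB2, -1.59 for ZEB1, -1.18 for SNAI2 and 2.03 for SNAI1. In the lines themselves ZEB1 had -1.41 and 0.16, ZEB2 -1.48 and 0.45, TWIST1 -1.20 and 0.81 and SNAI2 -0.76 and 0.41, with no overlap between DOX and vehicle libraries in either line. The 0.16 of ZEB1 lost its call with DESeq2, library size alone, the replicate block and without the first or the second vehicle library. SNAI1 had 0.62 and -1.43, and the second value rests on 0, 34 and 12 counts. The lines also differ in passage and in the depth of silencing, which cannot be told apart from the gene silenced.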

How the results depend on the processing

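Of 907 values of single members under the alternatives, 847 kept their direction and their side of the threshold, 30 lost the call, 14 gained one and 16 changed sign. Most sign changes were of values near 0. TWIST2 with GO-203 ranged from -0.016 to 0.073 with libraries left out, and was -0.0034 and -0.016 without the third 3D and the third GO-203 library. FOXC2 on MYC silencing became 0.018 with all 21 libraries in 1 fit and 0.0028 with halved counts, and ranged from -0.052 to 0.046 with libraries left out (above 0 without the first vehicle or the first DOX library). ZEB2 in vehicle tet-MUC1shRNA against 3D cells ranged from -0.069 to 0.016 (above 0 without the first vehicle library). PRRX1 in the interaction became -0.024 with all 21 libraries and ranged from -0.029 to 0.045 with libraries left out (below 0 in 6 of 12 fits), and PRRX1 on MUC1 silencing became 0.10 with library size alone. SNAI2 in 3D against 2D cells became 0.73 with vehicle tet-MUC1shRNA cells in place of 3D cells. The causes were not tested.

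The counts of members past the fold threshold moved as follows. In 3D against 2D cells the count was 3 with at least 10 counts in every library, which removes FOXC2 and GRHL2, 7 with an absolute fold change above 1.5, and 4 with halved counts. On MUC1 silencing the count was 2 with all 21 libraries in 1 fit, 6 with an absolute fold change above 1.5, and 1 to 2 with libraries left out (2 without the first vehicle library). With GO-203 it was 2 with an absolute fold change above 1.5. On MYC silencing it was 1 with that threshold, 1 with the replicate block, and 0 to 1 with libraries left out (1 without the second DOX library). Members passing the test with libraries left out numbered 9 in each fit for 3D against 2D cells, 6 to 8 on MUC1 silencing, 2 to 3 with GO-203, 4 to 6 on MYC silencing and 6 to 7 in the interaction.

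The replicate numbers were not treated as pairs. Libraries with the same number deviated together at a mean correlation of -0.04 (3D against 2D), 0.03 (MUC1 silencing), 0.11 (GO-203, every number closest to its own) and -0.18 (MYC silencing). With the replicate block 9, 7, 3 and 5 members passed in these comparisons, the same numbers as without it, but on MYC silencing ZEB1 lost the call (adjusted p = 0.14) and SNAI1 gained it (-1.79, adjusted p = 0.094), and SNAI1 lost it in vehicle tet-MUC1shRNA against 3D cells (adjusted p = 0.11). Library size alone moved the median over all genes on MUC1 silencing from 0.02 to 0.19 and the split of calls from 5892 higher and 6070 lower to 7965 and 4404. Of the members, 3 were then higher and 5 lower. Depth limits SNAI1, with at most 172 counts in a mammosphere library, and GRHL2 and OVOL1, with at most 66 and 4 counts in any library.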
